A study of Mus musculus with 4 samples.

Results

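The miR-10 family of the mouse has 2 hairpin genes, mir-10a (mmu-mir-10a) and mir-10b (mmu-mir-10b). Both were measured in small RNA of mature sperm taken from the cauda epididymis, where sperm are stored. They were taken by name from the microRNA class of the deposited tables, so 2 of 605 listed hairpins are described here. The libraries came from 4 adult C57BL/6 mice, 1 library per mouse. Of these, 2 mice came from a breeding labelled original cross and 2 from one labelled extra cross to wildtype. According to its title, the study set sperm susceptible to epigenetic silencing of LoxP, the recognition sequence of Cre recombinase, against sperm without that susceptibility. Which cross is which is not stated in the labels, and they name no allele or transgene. All 4 libraries share the strain, the tissue, the kit and the sequencing lane. Values are in RPM, read values that the authors scaled for library size, and each of the 2 tables holds 1 library of each cross under 1 replicate number.

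MicroRNAs are cut from a hairpin precursor, and 1 arm is loaded into an Argonaute protein. The loaded strand finds messenger RNAs mainly through its seed, bases 2 to 8. The miR-10 genes are conserved members of the Hox clusters, the gene arrays that pattern the body axis, and Hox transcripts are among their known targets. In mature sperm, which transcribe little, microRNAs are carried over from spermatogenesis or taken up from epididymal vesicles.

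The mature strands show why the members are hard to tell apart in short reads. They are printed 5′ to 3′ with the seed in capitals, as given by RefSeq for GRCm38.p6.

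miR-10a-5p: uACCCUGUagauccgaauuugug

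miR-10b-5p: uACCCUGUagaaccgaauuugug

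miR-10a-3p: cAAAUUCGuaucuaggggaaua

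miR-10b-3p: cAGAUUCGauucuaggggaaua

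The 5p strands share the seed and 22 of 23 bases. Counted from the 5′ end, with miR-10a first, their only substitution is U12A. Among 1679 mature mouse microRNAs in the RefSeq table, only these 2 carry the seed ACCCUGU. The 3p strands differ at 3 of 22 bases (A3G, U9A and A10U) and have different seeds. The deposited value of a hairpin does not separate its arms, and for the mismatches allowed in mapping no source used here gives a number. How many reads of 1 member were placed on the other is therefore unknown.

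The hairpins lie in different Hox clusters of GRCm38, the assembly also called mm10. The gene of mir-10a is at chr11:96317165-96317274 on the plus strand. In GENCODE M21 it lies between genes, 993 bases before the start of Hoxb4 and 11044 bases after the end of Hoxb5. In the RefSeq gene table it also lies within the span of Hoxb3 (96307101 to 96347930). The gene of mir-10b is at chr2:74726070-74726137 on the plus strand, in an intron of 2 Hoxd4 transcripts and 1 Hoxd3 transcript of GENCODE M21. No exon of either gene covers it.

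The miR-10 hairpins were the 2 most abundant microRNAs in every library, mir-10b first and mir-10a second. In original-cross replicates 1 and 2, the level of mmu-mir-10b was 85208 and 33062 RPM. In extra-cross replicates 1 and 2 it was 151120 and 45026 RPM. For mmu-mir-10a, original-cross levels were 50397 and 21536 RPM and extra-cross levels were 111065 and 26893 RPM. In both hairpins the replicate 1 library of each cross was the high one, and the ranges of the crosses overlapped. With the value of 1 read estimated from the commonest microRNA value of a library, the fewest reads behind a value were about 31894 (mir-10a, original-cross replicate 1) and the most about 235410 (mir-10b, extra-cross replicate 1). Counting error alone is then at most 0.56% of a value, far below the spread between mice of a cross. It covers the number of reads only, since reads without molecular identifiers are not independent molecules.

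**Figure D1:**
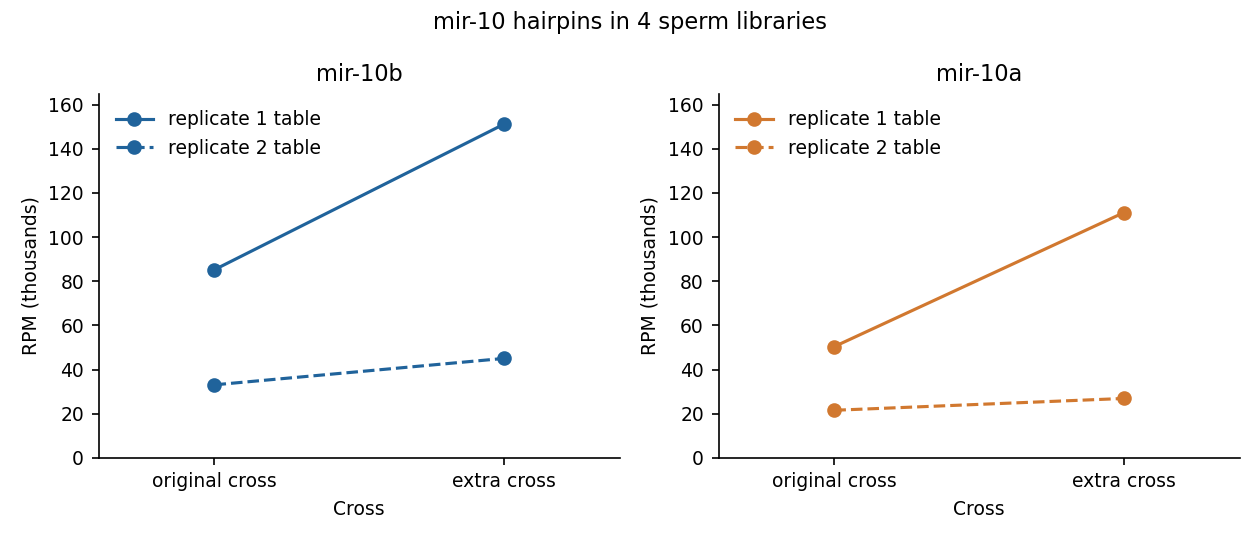
RPM (linear axis from 0) of mir-10b and mir-10a in the 4 libraries, 1 point per library. Lines join the libraries of 1 table and do not stand for matched mice. The extra-cross point is above the original-cross point of the same table for both hairpins, and replicate 1 is above replicate 2 in both crosses.

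The spread between replicate numbers exceeded the difference between crosses. Within the original cross, replicate 1 was 2.34-fold above replicate 2 for mir-10a and 2.58-fold for mir-10b. Within the extra cross the ratios were 4.13 and 3.36. The whole microRNA class moved the same way, at 2.35-fold in the original and 3.14-fold in the extra cross, while tRNA reads were lower in replicate 1 (ratios of 0.618 and 0.594). The microRNA class made up 49.6% and 23.6% of the 5 small RNA classes (tRNA, microRNA, piRNA, rRNA and repeats) in original-cross replicates 1 and 2, and 66.0% and 28.1% in extra-cross replicates 1 and 2. The miR-10 pair alone took 24.4% and 10.97% of the 5 classes in the original cross and 39.2% and 14.4% in the extra cross.

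Between the crosses, both members were higher in the extra-cross library of each table, but neither passed in a fit with cross as the only term. Extra over original was 2.20 in replicate 1 and 1.25 in replicate 2 for mir-10a. For mir-10b it was 1.77 and 1.36. Being higher in both tables was common, at 42.7% of the 206 hairpins with a mean of at least 10 RPM. The fit of limma to log2(RPM + 1) over all 760 small RNA features at that minimum, with cross as the only term, gave a log2 fold change of 0.73 ± 0.87 (SE, n = 2 per cross) for mir-10a, with a 95% interval from -1.49 to 2.95 and a limma adjusted p of 0.995. For mir-10b it gave 0.64 ± 0.81 (SE, n = 2 per cross), an interval from -1.45 to 2.72 and a limma adjusted p of 0.995. In that fit 0 of 760 features (0%) passed at a Benjamini-Hochberg adjusted p under 0.05. Before adjustment, 112 were below 0.05, of which only 6 were higher in the extra cross. Counted by class, 6 of the 112 were hairpins. The SEs of this fit include the difference between replicate numbers. Same-numbered libraries deviated together (correlation of deviations 0.87 over all 760 features and 0.64 over hairpins). A fit with a replicate block, which had another outcome, is given with its limits in the last section. The members ranked 38 (mir-10a) and 48 (mir-10b) of 206 hairpins from the highest log2 fold change, where the median was 0.20. Without extra-cross replicate 1 the values turned to -0.29 for mir-10a and -0.24 for mir-10b, and without original-cross replicate 2 mir-10b turned to -0.05. Leaving out a library lets the difference between the replicate numbers into the value. Without original-cross replicate 2, mir-10a stood at 0.12. Without original-cross replicate 1 the values were 1.34 for mir-10a and 1.32 for mir-10b, and without extra-cross replicate 2 they were 1.75 and 1.51.

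Under each of the 4 other scalings tried the differences kept a positive sign, and their size changed. The median log2 fold change of all 760 features was -0.12 as deposited and 0.33 under median-ratio scaling. Relative to that median mir-10a lay 0.85 higher as deposited and 0.87 under median-ratio scaling, and mir-10b lay 0.76 and 0.77 higher. With each class scaled to its own mean total, these distances were 0.35 for mir-10a and 0.26 for mir-10b. Relative to the median hairpin, mir-10a lay 0.53 and mir-10b 0.44 higher as deposited. The log2 fold changes themselves were 0.26 for mir-10a and 0.17 for mir-10b under that class scaling, in which the microRNA total includes the members.

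As a share of the microRNA class, which no library scaling can alter, the crosses did not overlap for the pair. Of the 206 tested hairpins taken singly, 10.7% had both extra-cross shares above both original-cross shares. The pair held 49.2% and 46.5% of summed microRNA RPM in original-cross replicates 1 and 2, and 59.4% and 51.2% in extra-cross replicates 1 and 2. The means were 47.9% ± 1.86 and 55.3% ± 5.78 (SD, n = 2 each), a difference of 7.44 percentage points. An exact two-sided permutation test gave p = 0.333, the smallest that 2 libraries against 2 allow. Within the tables the difference was 10.2 points in replicate 1 and 4.67 points in replicate 2. It was 3.36 points without extra-cross replicate 1 and 11.5 points without extra-cross replicate 2.

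The mean share of mir-10a differed by 3.84 points between the crosses and that of mir-10b by 3.61 points. The mir-10a share was 18.3% and 18.4% in the original cross and 25.2% and 19.1% in the extra cross, so extra-cross replicate 1 stood apart. The mir-10b share was 30.9% and 28.2% against 34.2% and 32.1%, with differences of 3.33 and 3.88 points in the 2 tables. In each member the extra-cross shares lay above both original-cross shares, as they did for 10.7% of the 206 hairpins. Each had an exact permutation p of 0.333 (n = 2 per cross). No interval is given for these shares because many low values were fractions of a read and whole counts were not recovered.

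**Figure D2:**
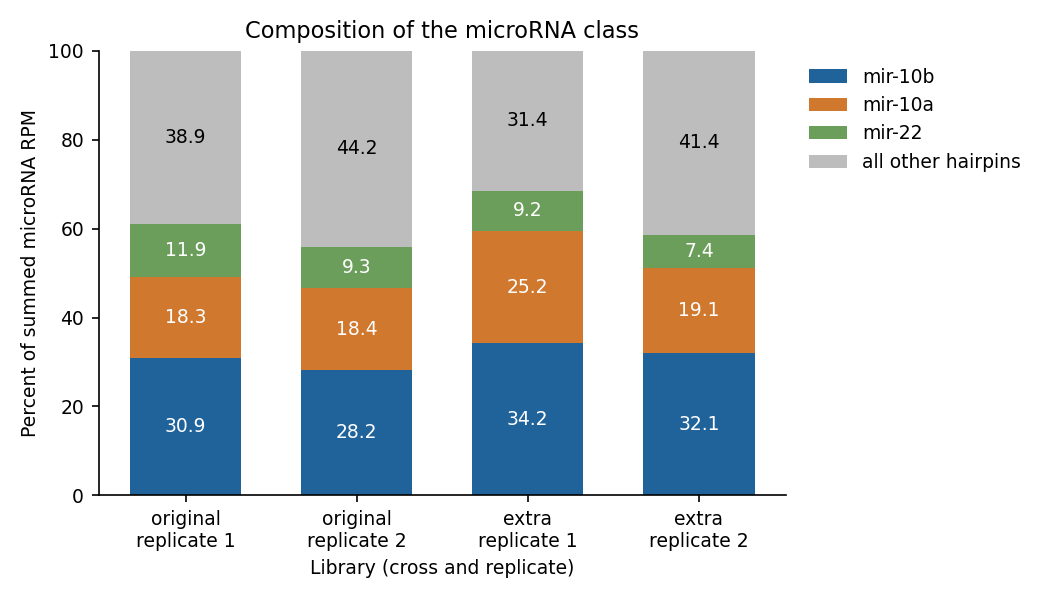
Percent of summed microRNA RPM (axis from 0) held by mir-10b, mir-10a, mir-22 and all other hairpins, 1 bar per library. The blue and orange parts together are 49.2% and 46.5% in the original cross and 59.4% and 51.2% in the extra cross.

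The ratio of mir-10b to mir-10a did not separate the crosses. It was 1.69 and 1.54 in original-cross replicates 1 and 2 and 1.36 and 1.67 in extra-cross replicates 1 and 2. The lowest ratio was that of extra-cross replicate 1, and the other extra-cross library lay within the original-cross range. On the log2 scale the means were 0.69 ± 0.098 and 0.59 ± 0.21 (SD, n = 2 each), with a difference of -0.094 and an exact two-sided permutation p of 0.667. The sign differed between the tables, at -0.31 in replicate 1 and 0.13 in replicate 2, and without extra-cross replicate 1 the difference was 0.055. In every library mir-10b exceeded mir-10a.

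The third microRNA in every library was mir-22, a broadly expressed microRNA abundant in muscle. It held 11.9% and 9.30% of the class in the original cross and 9.17% and 7.43% in the extra cross. The ratio of mir-10b to mir-22 was 2.60 and 3.03 in the original cross and 3.73 and 4.32 in the extra cross. For mir-10a it was 1.53 and 1.97 against 2.74 and 2.58. Neither ratio overlapped between the crosses, and each had an exact permutation p of 0.333 (n = 2 per cross). These ratios need no scaling, but they were chosen after the values were seen. Of 204 other tested hairpins, the ratio of the miR-10 pair to the hairpin was higher in both extra-cross libraries than in both original-cross libraries for 38.7%, and lower in both for 2.94%.

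The other hairpins among the 10 most abundant were each below 3% of the class. Extra over original in replicates 1 and 2 was 1.75 and 1.24 for mir-148a, 1.74 and 1.21 for mir-21a, 1.19 and 1.43 for mir-27b, and 2.76 and 1.16 for mir-191. It was 1.84 and 1.11 for mir-182, and 1.076 and 1.096 for mir-26a-2, whose copy mir-26a-1 has nearly the same values. The mir-148a and mir-21a values lay near those of mir-10b in both tables. Over all hairpins but the miR-10 pair, summed RPM was 1.28-fold and 1.09-fold higher in the extra cross of replicates 1 and 2, against 1.93-fold and 1.32-fold for the pair.

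MicroRNAs usually grouped with miR-10 by sequence are miR-99, miR-100 and miR-125. They are shown to mark how far the likeness goes, with the seed in capitals.

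miR-99a-5p: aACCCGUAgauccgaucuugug

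miR-99b-5p: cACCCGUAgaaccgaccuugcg

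miR-100-5p: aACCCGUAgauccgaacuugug

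miR-125a-5p: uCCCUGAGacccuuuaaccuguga

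miR-125b-5p: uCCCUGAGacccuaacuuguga

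The miR-99 and miR-100 strands share 1 seed, ACCCGUA, which differs from that of miR-10. The longest run that miR-100-5p shares with miR-10a-5p is 11 bases, GUAGAUCCGAA, and that of miR-99b-5p with miR-10b-5p is 10 bases, GUAGAACCGA. The miR-125 strands share at most 5 bases in a row with either member.

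These relatives were far less abundant, and their differences between the crosses were mixed in sign. Their 6 hairpins summed to 2.52% and 2.55% of the class in the original cross and to 1.70% and 1.59% in the extra cross. The class total includes the miR-10 pair, so a larger share of the pair lowers these shares. In RPM the 6 summed to 6956 and 2996 in original-cross replicates 1 and 2. In extra-cross replicates 1 and 2 the sums were 7490 and 2228 RPM, higher in replicate 1 and lower in replicate 2. Of the 6, all tested, 1 was higher in both tables, against 42.7% of hairpins, and 2 were lower in both, against 23.3%. Those 2 were the mir-125b copies, which give the same 5p strand and are not separate microRNAs. The median log2 fold change of the 6 hairpins was 0.023, against 0.20 for all 206 hairpins. The sign of that median rests on the scaling, since it was 0.48 under median-ratio scaling, -0.11 scaled to the 5 classes and -0.45 when every class was scaled separately.

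The most abundant of them, mir-125a, had original-cross levels of 3367 and 1231 RPM and extra-cross levels of 3866 and 1006 RPM. The near-identical mir-125b copies were the lower ones: mir-125b-1 went from 738 and 559 RPM (original) to 591 and 274 RPM (extra), and mir-125b-2 from 774 and 569 to 597 and 304 RPM. Their limma log2 fold changes were -0.67 ± 0.61 and -0.64 ± 0.60 (SE), each with a limma adjusted p of 0.995. Among the seed-sharing group mir-99b had 1180 and 398 against 1460 and 371 RPM. The values of mir-99a were 487 and 131 against 463 and 157 RPM, and those of mir-100 were 409 and 107 against 512 and 117 RPM. None of the 6 passed the test.

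The ratio of the miR-10 pair to the sum of these 6 hairpins varied little between mice of a cross. It was 19.5 and 18.2 in original-cross replicates 1 and 2 and 35.0 and 32.3 in extra-cross replicates 1 and 2. On the log2 scale the means were 4.24 ± 0.069 and 5.07 ± 0.083 (SD, n = 2 each), a difference of 0.83 with an exact two-sided permutation p of 0.333. The ratio to each of the 6 taken singly also lay higher in both extra-cross libraries than in both original-cross libraries, with log2 differences from 0.45 (mir-100) to 1.35 (mir-125b-1). This is set beside the 38.7% of all other hairpins for which the same was seen. The comparison was chosen after the values were seen. In the original cross every single ratio varied more between mice than the ratio to the sum. Its log2 SD ran from 0.098 (mir-125a) to 0.65 (mir-125b-1). There the ratios to the mir-125b copies fell from replicate 1 to replicate 2, while those to the other relatives rose. These opposite movements partly cancel in the ratio to the sum. In the extra cross the log2 SD of the single ratios ran from 0.054 (mir-125a) to 0.63 (mir-125b-2).

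**Figure D3:**
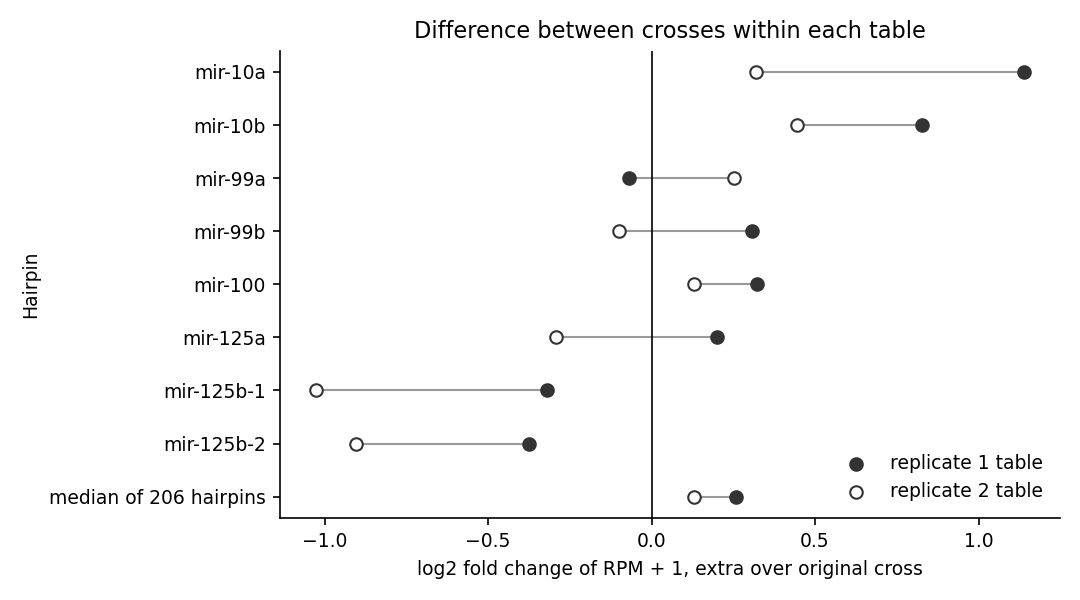
Log2 fold change of RPM + 1, extra over original cross, within the replicate 1 table (filled points) and the replicate 2 table (open points), for the miR-10 hairpins, their 6 relatives and the median of 206 hairpins. The miR-10 hairpins lie between 0.32 and 1.14, and the mir-125b copies lie below 0 in both tables.

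Other microRNAs of the Hox clusters were rare in these libraries. The mir-615 hairpin, which lies in the Hoxc cluster, stood at 50.6 and 13.5 RPM in original-cross libraries and at 39.8 and 10.2 RPM in extra-cross ones, with a log2 fold change of -0.35 ± 0.91 (SE, limma adjusted p = 0.995), which was 0.089 under median-ratio scaling. The 3 mir-196 hairpins, whose targets include Hox transcripts, stayed below the minimum in mean RPM, and their highest value was 3.33 RPM (mir-196b, extra-cross replicate 2). Fragments of the Hox genes beside the members were also few. Of the 7 genes with rows among RefSeq transcripts, the highest value of any transcript was 2.36 RPM (Hoxb4, original-cross replicate 2). Hoxb4 had 1.28 and 0.951 RPM in extra-cross replicates 1 and 2. Hoxd4 had at most 0.713 RPM and Hoxb5 at most 1.68 RPM. RefSeq values of original-cross replicate 1 sit on a lower scale than its other classes, so they are not compared.

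The patterns over the 4 libraries were compared by centring log2(RPM + 1) of each hairpin on its own mean and taking the root mean square difference. The members were near each other, at 0.13 on the log2 scale, against a median of 0.56 between mir-10a and the 205 other hairpins and 0.49 between mir-10b and the others. The nearest to mir-10a were mir-743a (0.090), mir-10b (0.13), mir-204 (0.13), mir-15a (0.14) and mir-128-1 (0.15). The nearest to mir-10b were mir-467d (0.059), mir-107 (0.090), mir-93 (0.11), mir-10a (0.13) and mir-15a (0.13). All share the order with extra-cross replicate 1 highest and original-cross replicate 1 second. With 4 libraries and a scale that moves the whole class, such likeness is a description. The values of mir-743a and mir-467d in original-cross replicate 1, 17.4 and 15.8 RPM, rest on about 11 and 10 reads.

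**Figure D4:**
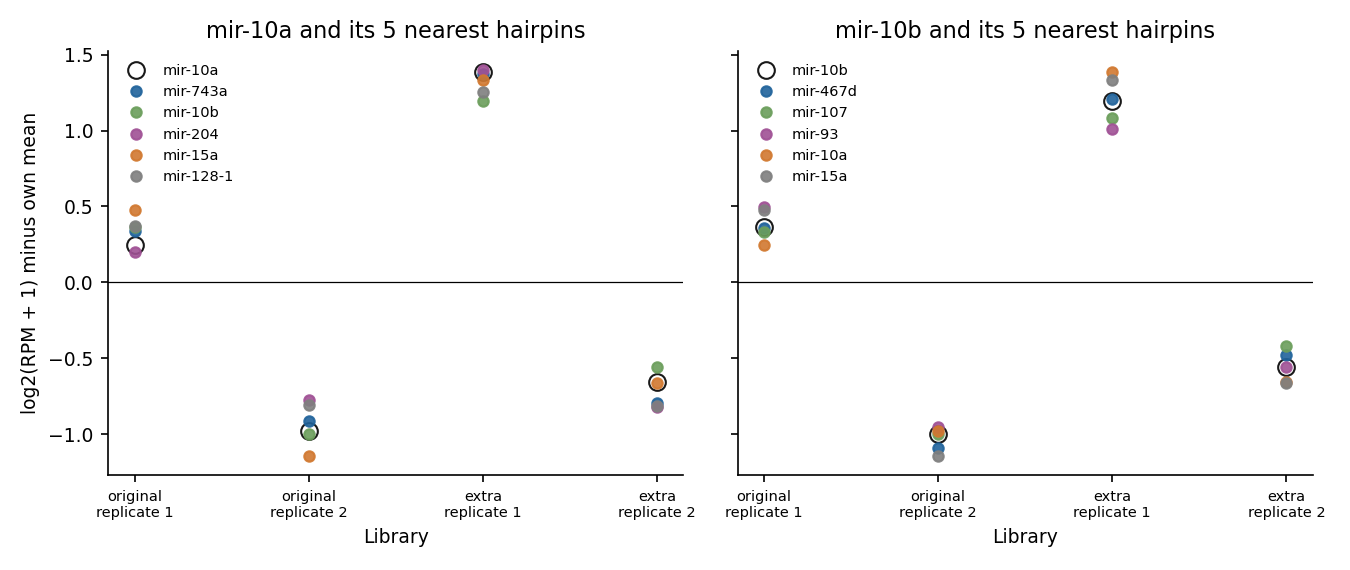
Log2(RPM + 1) minus the hairpin's own mean, 1 column of points per library, for mir-10a (left, open circle) and mir-10b (right, open circle) and the 5 hairpins nearest to each. In both panels extra-cross replicate 1 is the highest library, original-cross replicate 1 is second, and both replicate 2 libraries lie below 0.

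Markers of cells that a sperm preparation can hold also differed between these libraries, and their part in the miR-10 values was not tested. In bulk RNA, fewer cells of a type and less RNA per cell cannot be told apart. Of the 5 epididymal epithelium hairpins, led by mir-141, mir-429, mir-200a and mir-200b, 4 had a higher extra-cross value in both tables, and none was at 0. Their sums were 4394 and 2055 RPM (original) against 10408 and 5315 RPM (extra). Of the 6 smooth muscle and stroma hairpins (mir-143, mir-199a-1, mir-199a-2, mir-145a, mir-199b and mir-214), 5 were lower in both tables, and none was at 0. Their sums were 8547 and 6264 RPM (original) against 3382 and 5078 RPM (extra). The 8 blood hairpins, of which mir-150, mir-486a, mir-486b and mir-142b were the most abundant, summed to 6520 and 1229 against 11186 and 1136 RPM, with 4 higher and 2 lower in both tables and none at 0. The endothelial mir-126a and mir-126b summed to 763 and 463 against 1009 and 388 RPM, and neither had the same sign in both tables. The values of mir-486a and mir-486b were identical in every library. Those of mir-142a and mir-142b were nearly identical, as were those of mir-199a-1 and mir-199a-2. The same signal therefore enters the sums and counts under both names. These counts are read against the 42.7% of all 206 hairpins that were higher and the 23.3% that were lower in both tables. No hairpin of these lists passed limma with cross as the only term, where the limma adjusted p was 0.398 for mir-141 and 0.415 for mir-199a-1.

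The label of spermatozoa was checked against germ cell markers. Of 5 spermatogenic hairpins 4 were listed, and mir-34c, of meiotic and later germ cells, was at 1828 and 707 RPM (original) and 1703 and 1132 RPM (extra). Its relative mir-34b had 88.5 and 40.4 against 108 and 70.4 RPM. The mir-449a and mir-449c hairpins stayed at or below 4.74 RPM, and mir-449c was at 0 in extra-cross replicate 1. Fragments of 7 sperm transcripts, among them the protamines Prm1 and Prm2, did not exceed 2.24 RPM, in libraries size-selected for small RNA. The RefSeq values of original-cross replicate 1, on a lower scale, are not comparable here either. The summed markers of epithelium and stroma exceeded the spermatogenic hairpins in all 4 libraries. These sums cover different hairpins and do not measure how much of each cell type a library held. Which cells the miR-10 reads came from was not tested.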

How the data were processed

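The deposited values are RPM, as the column headers of the authors' 2 tables name them. The denominator of RPM, the annotation and the handling of multi-mapping reads: not given in the sources used here. CASAVA 1.8.2, Bowtie 1.1.2 and mm10 appear in the submitters' processing notes, roles unstated. The column header gives the cross and the table gives the replicate number. A feature listed in 1 table was given 0 in the other (53800 and 66068 features, 49284 in both). The commonest microRNA value was taken as 1 read, which puts the totals behind RPM at 632859 to 4205692 reads. Of microRNA values of 20 reads or fewer, at most 68.7% fell within 0.02 of a whole read, so no count model was run.

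Features of 5 small RNA classes averaging 10 RPM or more were fitted on log2(RPM + 1) with limma 3.58.1 in R 4.3.3, with a variance trend and Benjamini-Hochberg adjustment over all 760. Fold changes on this scale understate those of low features. The fit was tested on simulated data with independent noise in each library. That test therefore does not cover a difference shared by same-numbered libraries. Shares and ratios were compared by exact permutation. Tables were prepared with Python 3.11.15 and pandas 2.3.3. The members, lists and naming rule were chosen with earlier results of these data known. Named are the members, their relatives, the Hox-cluster hairpins, the 10 most abundant hairpins, the 5 nearest to each member in pattern, and up to 4 of the most abundant of each marker list. Alternatives covered scaling, pseudocount, filter, features fitted, variance trend, a replicate block and each library left out. Each library is 1 mouse.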

Additional observations from a re-analysis of the deposited data

How the results depend on the processing

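The log2 fold changes of mir-10a and mir-10b stayed positive and below the threshold under 8 planned changes of scaling, pseudocount, filter or features and without the variance trend, and when scaled to the microRNA class without the pair, a setting chosen after seeing the data. With the replicate block their values were unchanged (0.73 and 0.64) but passed limma (adjusted p = 3.12e-11 and 4.14e-11). In place of 0, 171 of 760 features (22.5%) passed. The block SEs, 0.096 for mir-10a and 0.085 for mir-10b, draw on variance shared over all features. The log2 differences within replicates 1 and 2 were 1.14 and 0.32 for mir-10a and 0.83 and 0.45 for mir-10b. These adjusted p values therefore do not measure how well replicates 1 and 2 agree. The replicate numbers are not known to pair mice. Same-numbered libraries deviated together (correlation of deviations 0.87 over 760 features and 0.64 over hairpins). The block left the share difference at 7.44 points (exact p = 0.5) and the mir-10b to mir-10a difference at -0.094 (exact p = 1). Changing the signs of 2 within-table differences allows no exact p below 0.5. Leaving out each library gave -0.29 to 1.75 for mir-10a, -0.24 to 1.51 for mir-10b, 3.36 to 11.5 points for the share, -0.24 to 0.055 for the ratio, and 0 features past the threshold. For list medians, the 6 hairpins of miR-99 and its relatives (0.023) went to -0.11 scaled to the 5 classes, -0.45 with each class on its own and -0.22 scaled to microRNAs without the pair, and ranged from -0.95 to 0.90 with a library left out. The single tested Hox-cluster hairpin (-0.35) went to 0.089 under median-ratio scaling and ranged from -1.28 to 0.58. All hairpins (0.20) went to -0.27 with each class on its own and -0.041 scaled to microRNAs without the pair, and ranged from -0.46 to 0.82. The cause was not tested. Each value of a member rests on at least about 31894 reads, estimated from the commonest microRNA value of its library.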
